A study of Mus musculus with 4 samples.

Results

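The genes described here encode the proteasome, the barrel-shaped protease that degrades ubiquitin-tagged proteins, together with its inducible variant, the immunoproteasome. They were taken by symbol, as all genes whose single symbol in the platform's probe annotation begins with Psma to Psmg and a digit. This gave 49 of the 22180 genes that had a feature of their own on the array, and 48 of the 49 reached the expression level at which genes were tested. The missing one was Psmb11, the catalytic subunit of the thymus proteasome, which lay below that level. The symbol rule used no measured value. It also took Psmc3ip, a cofactor of meiotic recombination, and Psme3ip1, a partner of PA28 gamma, which are not proteasome subunits, and it left out Psma4, whose features are shared with a second gene.

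Expression was measured on 4 one-colour whole-transcript arrays of mouse bone marrow derived macrophages, 2 from knockout cells (PP2ACαfl/fl;lyM-Cre) and 2 from control cells (PP2ACαfl/fl). Both genotypes carried floxed alleles of Ppp2ca, which encodes PP2ACα, a catalytic subunit of protein phosphatase 2A. The knockout cells also carried a myeloid Cre that deletes exon 1, which acts as far as Cre is active in each cell; the labels write lyM-Cre, taken here for Cre in the gene of lysozyme M. All cells were grown for 6 days with L-cell supernatant and received 100 ng/ml of lipopolysaccharide (LPS), a bacterial cell wall component, for 2 hours, so no array shows the level before LPS. The arrays of a genotype are labelled as biological replicates; the labels do not say whether they came from separate mice, and if they did not, the p-values measure technical spread. The ages of the mice are not given in the sources used here.

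The proteasome has a core particle of stacked rings, whose alpha subunits form the gate and whose beta subunits include 3 proteolytic ones, encoded by Psmb5, Psmb6 and Psmb7. A regulatory particle of ATPase subunits (Psmc genes) and non-ATPase subunits (Psmd genes) binds ubiquitin chains, unfolds the substrate and feeds it into the core. Interferon induces replacement catalytic subunits, encoded by Psmb8, Psmb9 and Psmb10, which take the places of Psmb5, Psmb6 and Psmb7 in newly built cores, and the activator PA28, encoded by Psme1 and Psme2. The resulting immunoproteasome is known for producing peptides that the transporter TAP carries to MHC class I molecules, and macrophages are among the cells that hold it.

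The promoter windows are shown first, since Psmb9, the one gene of the set that passed the test, lies head to head with Tap1, a TAP subunit. Windows from 250 bases before to 50 bases after the transcription start were available from RefSeq (GRCm38.p6) for 41 of the 49 genes; the deposited values name no genome build. The windows below belong to Psmb9 (chr17:34187281-34187580, minus strand), Psmb8 (chr17:34197945-34198244, plus strand), Psme1 (chr14:55578244-55578543, plus strand) and Psmb6 (chr11:70525107-70525406, plus strand). In the Psmb9 window the capitals mark the 225 bases between its start and that of Tap1. In the others they mark motif matches, a gamma-activated sequence in Psmb8, an interferon-stimulated response element in Psme1 and an antioxidant-type element in Psmb6.
Psmb9: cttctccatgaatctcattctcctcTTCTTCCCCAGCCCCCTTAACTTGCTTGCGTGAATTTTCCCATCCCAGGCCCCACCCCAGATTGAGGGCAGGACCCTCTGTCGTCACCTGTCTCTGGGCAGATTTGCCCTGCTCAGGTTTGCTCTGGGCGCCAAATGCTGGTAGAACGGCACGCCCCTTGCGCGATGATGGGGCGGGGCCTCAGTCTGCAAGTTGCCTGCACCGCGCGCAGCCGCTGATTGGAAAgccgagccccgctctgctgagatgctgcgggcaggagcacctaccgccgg
Psmb8: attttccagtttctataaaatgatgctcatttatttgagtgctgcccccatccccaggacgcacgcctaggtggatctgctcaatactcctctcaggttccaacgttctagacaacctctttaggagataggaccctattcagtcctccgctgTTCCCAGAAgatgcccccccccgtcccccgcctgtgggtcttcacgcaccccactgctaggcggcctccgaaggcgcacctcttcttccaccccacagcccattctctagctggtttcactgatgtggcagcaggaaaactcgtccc
Psme1: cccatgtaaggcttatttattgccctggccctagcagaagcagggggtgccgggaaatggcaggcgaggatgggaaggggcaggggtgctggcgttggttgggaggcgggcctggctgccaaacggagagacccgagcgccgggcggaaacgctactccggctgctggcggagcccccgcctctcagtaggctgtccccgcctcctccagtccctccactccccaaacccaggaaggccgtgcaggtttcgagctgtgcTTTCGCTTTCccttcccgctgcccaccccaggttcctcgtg
Psmb6: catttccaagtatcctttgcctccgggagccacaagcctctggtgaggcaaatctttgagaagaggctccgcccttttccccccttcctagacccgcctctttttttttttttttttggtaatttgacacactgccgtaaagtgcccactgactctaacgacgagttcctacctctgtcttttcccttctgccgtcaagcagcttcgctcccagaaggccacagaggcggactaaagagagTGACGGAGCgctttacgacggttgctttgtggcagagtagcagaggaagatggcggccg

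The windows of Psmb9 and Tap1 share 275 of their 300 bases, read on opposite strands. Searched on both strands, the interferon-stimulated response element (GAAANNGAAA) occurred in 3.44% of all 32851 promoter windows, the gamma-activated sequence (TTCNNNGAA) in 8.3%, a kB motif (GGGNNTTTCC) in 1.63% and the antioxidant-type element (TGACNNNGC), a core of the sites that NRF1 binds, in 12.4%. Among the windows of Psmb8, Psmb9, Psmb10, Psme1 and Psme2, the first motif was found in Psme1 alone, from base 9 to base 18 after the start, and the second in Psmb8 alone, from base -97 to base -89. None of the motifs had a match in the Psmb9 window, which says only that these letters are not in it. Of 39 windows of the other proteasome genes, 6 held the antioxidant-type element, or 15.4%, among them those of Psmb5 and Psmb6, and 4 the response element. Matches of different motifs did not overlap in the windows printed, and a match is a description of sequence, not a binding site.

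The targeted gene followed the labels. Ppp2ca stood at 4.36 and 3.39 log2 units on the knockout arrays, against 8.25 and 7.59 on the control arrays, which differ by -4.04 (SE 0.36; adjusted p = 0.0076 by limma). Array medians lay between 3.50 and 3.57 log2 units, and the arrays correlated across features at r = 0.986 to 0.990. Over all 12542 tested genes, 6.79% were called by limma at a Benjamini-Hochberg threshold of 0.05 (3.30% with higher and 3.49% with lower values in knockout cells). All 8 macrophage markers were expressed, at a median of 11.07 log2 units, and 1 of them, the Fc receptor gene Fcgr1, rose by 0.94 (limma adjusted p = 0.016). Of 4 T and NK cell markers, 3 lay below the filter level of 3.53, as did both B cell markers with a feature. So did 3 of 5 neutrophil markers, S100a8, Ly6g and Elane. The other 2 neutrophil markers, S100a9 at 3.77 and Mpo at 3.59, lay barely above that level and were not called. A bulk array cannot tell fewer cells of a type from less RNA per cell.

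Of the 48 tested proteasome genes, 1 was called higher in knockout macrophages and 0 were called lower, a share that does not exceed the 6.79% of all tested genes. The called gene was Psmb9. Of the genes of the immunoproteasome and PA28, 3 had positive and 2 negative differences, with a median of 0.15 log2 units. The other 43 tested genes had a median of -0.17, and 34 of them had negative differences, or 79.1%, against 48.7% of all tested genes, whose median was 0.0076. None of these 43 passed the test.

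Psmb9, the inducible subunit that replaces Psmb6, read 7.48 and 7.37 log2 units on the knockout arrays, against 6.73 and 6.62 on the control arrays. Both knockout arrays lay above both control arrays, and the gap between the genotypes was several times the gap between arrays of one genotype. The mean was 7.43 ± 0.08 in knockout and 6.68 ± 0.08 in control (SD, n = 2 each). The difference was 0.75 (SE 0.10, limma adjusted p = 0.017), a ratio of 1.68 with a 95% interval of 1.42 to 1.98. With the pooled fit on 3 arrays, in which the lone array is assumed to vary like the other genotype's, the difference held at 0.69 to 0.80, but the limma adjusted p was 0.11 without knockout replicate 1, 0.093 without knockout replicate 2, 0.066 without control replicate 1 and 0.073 without control replicate 2.

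Psmb8, the inducible counterpart of Psmb5, read 8.70 and 8.65 in knockout and 8.57 and 8.38 in control. Its difference of 0.20 (SE 0.10) did not pass (limma adjusted p = 0.30), and the 95% interval of the ratio ran from 0.96 to 1.37. Psmb10, which replaces Psmb7, read 8.72 and 8.75 in knockout and 8.63 and 8.54 in control, a difference of 0.15 (SE 0.09, limma adjusted p = 0.36) with a ratio interval of 0.95 to 1.29. For both genes the knockout arrays lay above the control arrays without overlap, as they did for 28.8% of all tested genes, and the intervals lie below the 1.42 at which that of Psmb9 begins.

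The PA28 activator genes showed no such separation. Psme1, which encodes PA28 alpha, read 8.91 and 8.78 in knockout and 9.05 and 8.85 in control, a difference of -0.11 (SE 0.11, limma adjusted p = 0.60), with overlapping groups. Psme2, the gene of PA28 beta, read 5.93 and 5.74 in knockout and 5.46 and 6.28 in control. The knockout arrays thus lay between the control arrays, and the difference of -0.04 had an SE of 0.27, so the interval of its ratio was as wide as 0.62 to 1.55. Leaving out control replicate 2 turned that difference to 0.37 and leaving out knockout replicate 2 turned it to 0.055, neither of which passed. A feature annotated jointly to Psme2, 9930111J21Rik1 and 9930111J21Rik2 read 7.60 and 7.13 in knockout and 6.84 and 6.60 in control, without overlap and with a difference of 0.65, against the -0.04 of the feature of Psme2 alone. It was not used, since it cannot be credited to a single gene, and the Psme2 result is therefore uncertain.

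Among the remaining activators, Psme3, the gene of the nuclear PA28 gamma, read 7.88 and 7.74 in knockout and 8.11 and 7.85 in control, a difference of -0.18 (limma adjusted p = 0.43). Psme4, which encodes the activator PA200, read 8.62 and 8.82 in knockout and 8.52 and 8.42 in control, without overlap and with a difference of 0.25 (SE 0.11, limma adjusted p = 0.23). Psmf1, the gene of the inhibitor PI31, read 6.37 and 6.39 in knockout and 6.39 and 6.02 in control. Its groups overlapped, and the difference of 0.18 did not pass (limma adjusted p = 0.49).

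All 3 constitutive catalytic genes had lower values on both knockout arrays than on either control array, as did 26.5% of all tested genes, and none passed the test. Psmb6, the caspase-like subunit, read 8.48 and 8.51 in knockout and 8.92 and 8.87 in control, a difference of -0.40 (SE 0.09, limma adjusted p = 0.056). Psmb5, the chymotrypsin-like subunit that proteasome inhibitors such as bortezomib bind, read 6.69 and 6.52 in knockout and 7.23 and 6.88 in control, a difference of -0.45 (SE 0.15, limma adjusted p = 0.13). Psmb7, the trypsin-like subunit, read 9.25 and 9.05 in knockout and 9.42 and 9.34 in control, a difference of -0.23 (SE 0.11, limma adjusted p = 0.25). Psmb6 passed when each array was centred on its median (limma adjusted p = 0.046, 7.58% of genes called), and when the prior variance followed the mean level (limma adjusted p = 0.01, 12.6% of genes called).

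**Figure D1:**
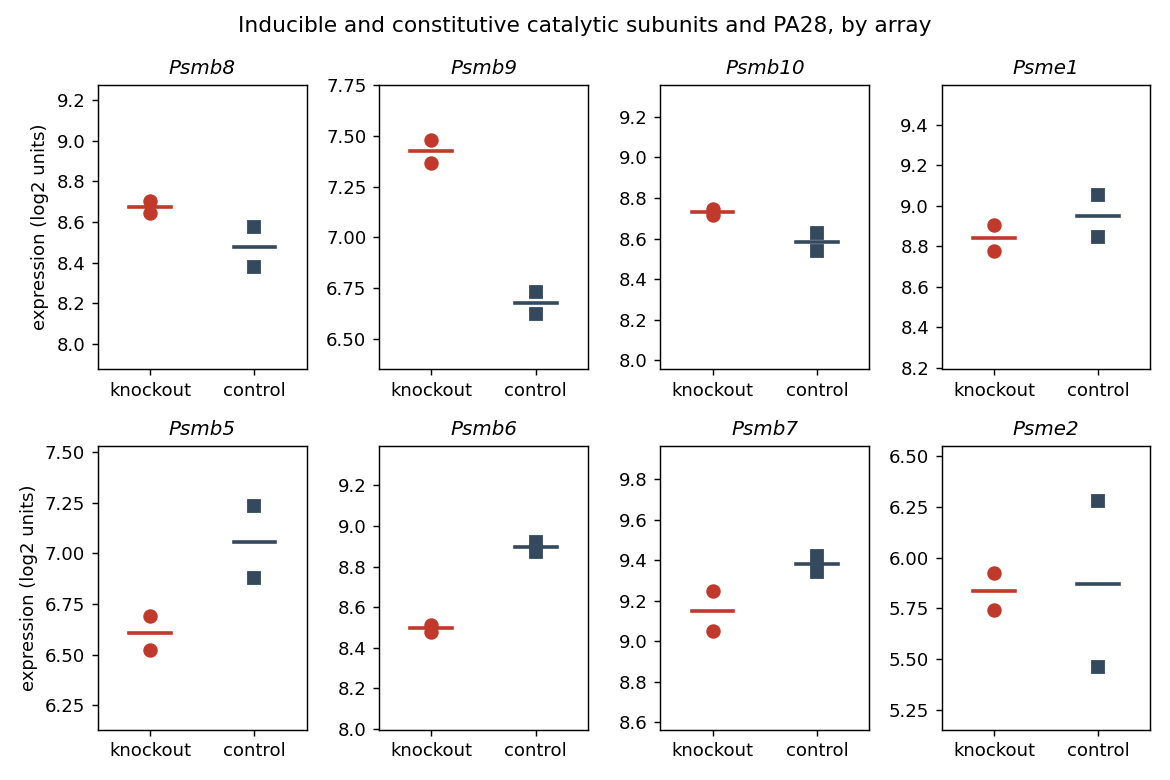
Expression in log2 units (vertical axes, each spanning the same range) of the inducible catalytic genes, the constitutive catalytic genes and the PA28 genes on each array, knockout as circles and control as squares, with the mean of 2 arrays as a line. Psmb9 stands at 7.43 in knockout and 6.68 in control, the constitutive genes lie lower in knockout, and the control arrays of Psme2 lie on either side of the knockout arrays.

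Since each inducible subunit takes the place of a constitutive one, the change of their log2 ratio within an array was computed for the 3 pairs. Relative to the control mean, the ratio of Psmb9 to Psmb6 was 1.22 and 1.07 on the knockout arrays and 0.030 and -0.030 on the control arrays, a change of 1.15 or 2.21-fold. For Psmb8 to Psmb5 the knockout arrays stood at 0.59 and 0.70 and the control arrays at -0.080 and 0.080, a change of 0.65. Psmb10 to Psmb7 gave 0.27 and 0.49 on the knockout arrays and 0.0054 and -0.0054 on the control arrays, a change of 0.38. Every pair had its knockout arrays above its control arrays. This follows from the single genes and adds no further result. The inducible ones lay above control without overlap and the constitutive ones below it. An exact two-sided permutation test over arrays gave p = 0.333 for each of the 3 pairs, unadjusted, which is the smallest p that 2 against 2 arrays allow, so it cannot pass 0.05. These are changes of transcript ratios; the levels of different features were not set against each other.

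The structural beta genes, which complete the inner rings of the core, had 4 negative differences of 4. Psmb3 read 4.64 and 4.47 in knockout and 4.90 and 5.14 in control, a difference of -0.47 (SE 0.12, limma adjusted p = 0.087) and the lowest of all tested proteasome genes. Its feature was dim, with a mean level of 4.79 log2 units, the lowest of the 4 structural beta genes. Psmb1 differed by -0.24, while Psmb2 at -0.03 and Psmb4 at -0.07 had overlapping groups.

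The alpha ring genes differed in both directions, with 4 of 7 negative and a median of -0.0048. Psma1 read 9.19 and 9.24 in knockout and 8.93 and 8.89 in control, which gives 0.30 (SE 0.09, limma adjusted p = 0.10), the highest difference of the core genes outside the inducible ones. Psma7 read 8.95 and 8.88 in knockout and 9.44 and 9.16 in control, a difference of -0.39 (SE 0.12, limma adjusted p = 0.12). In both genes the genotypes did not overlap, with Psma1 higher and Psma7 lower on the knockout arrays. Psma2 at 0.03, Psma3 at 0.01 and Psma6 at -0.10 were close to 0. So was Psma8, the alpha subunit of the testis proteasome, at -0.07, with a dim feature (mean 4.31 in knockout and 4.38 in control). Psma5 averaged 3.60 log2 units over the arrays, barely above the filter level for a subunit that every core needs. Its difference of -0.0048, which is also the median given above, therefore says little about the transcript.

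In the regulatory particle, 15 of 17 tested genes had negative differences, against 48.7% of all tested genes, and 10 had both knockout arrays below both control arrays, against 26.5%; none was called. All 11 non-ATPase subunits were negative, from -0.40 for Psmd1 to -0.01 for Psmd7. Psmd1, the large scaffold subunit of the base, read 9.01 and 9.17 in knockout and 9.50 and 9.48 in control (difference -0.40, SE 0.10, limma adjusted p = 0.073). A dimmer feature annotated jointly to Psmd1 and Armc9, which was not used, differed by 0.01 with overlapping groups. Psmd14, the deubiquitinase that strips ubiquitin from substrates, differed by -0.17, and the ubiquitin receptor Psmd4 by -0.12, both with overlapping groups. The ATPase genes ran from -0.27 for Psmc4 to 0.05 for Psmc6, and 4 of 6 were negative.

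Assembly factors had a similar spread. The 3 chaperones of the base, Psmd5, Psmd9 and Psmd10, differed by -0.21, -0.23 and -0.22, and the groups of Psmd9 overlapped. Of the core chaperones, Psmg1, Psmg2 and Psmg3 differed by -0.25, -0.17 and -0.21, and Psmg4 by 0.11. A fainter second feature of Psmg2 differed by 0.15 and thus against its main feature, and that of Psmc2 differed by -0.26 against -0.0055 for the main one. Outside the particle, Psmc3ip differed by -0.22 and Psme3ip1 by 0.14, and neither passed. The untested Psmb11 read 2.62 and 3.02 in knockout and 2.63 and 2.56 in control.

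**Figure D2:**
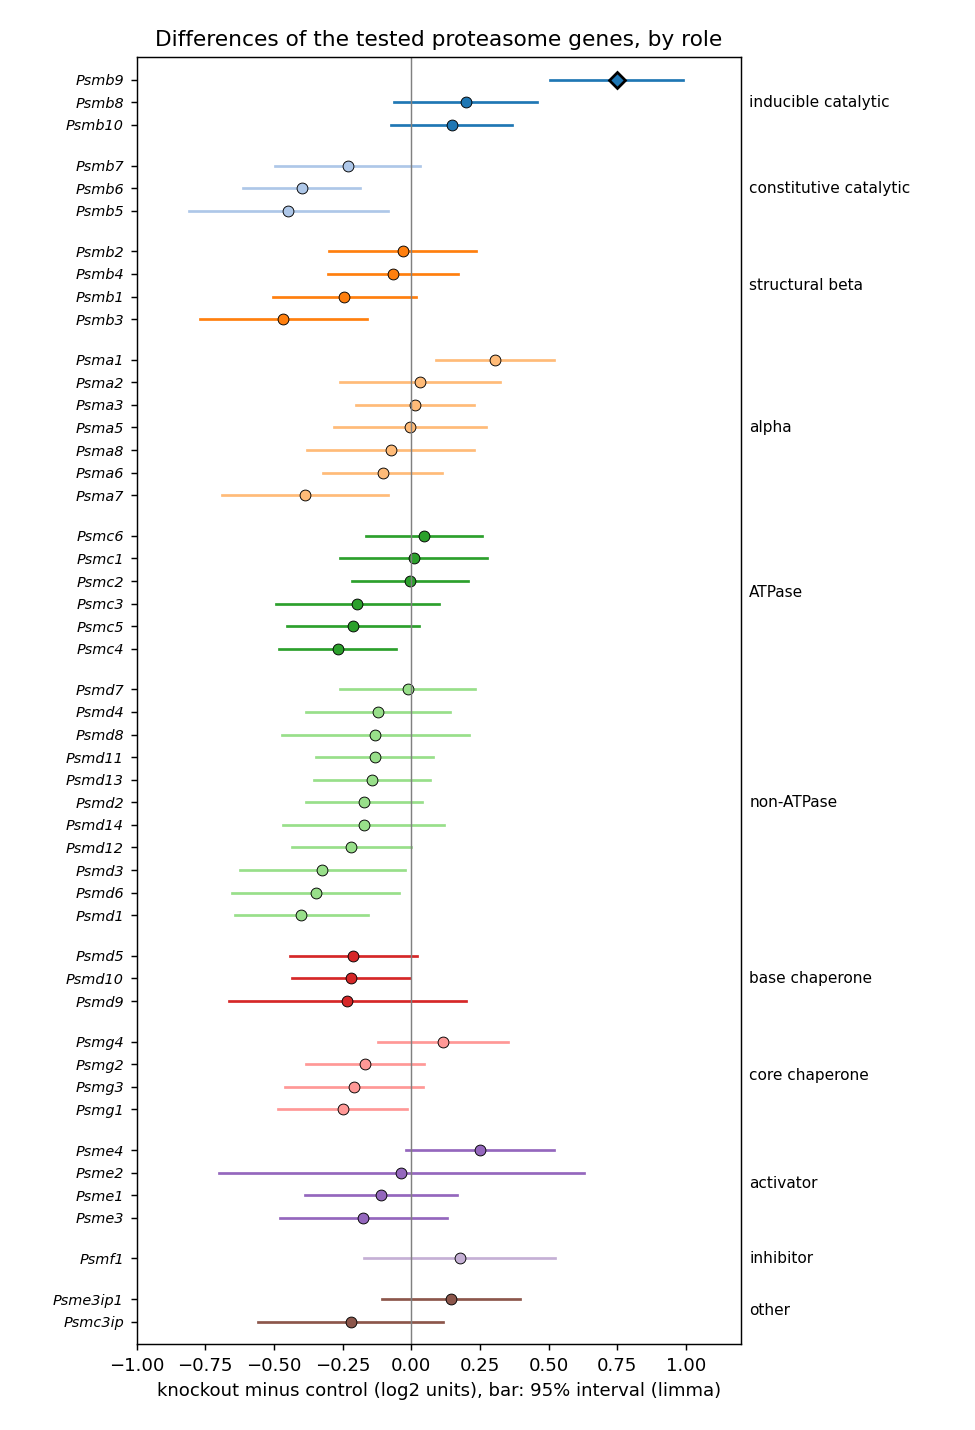
Knockout minus control difference (log2 units, horizontal axis) of the 48 tested proteasome genes, ordered by role, with 95% intervals from limma. Psmb9, drawn as a diamond, is the called gene at 0.75, and all 11 non-ATPase subunits lie left of 0.

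Set beside the whole array, 22 of the 43 other proteasome genes, or 51.2%, had both knockout arrays below both control arrays, against 26.5% of all tested genes. At an unadjusted p under 0.05 by limma, 11 of the 43 were lower, or 25.6%, against 12.1% of all tested genes. In the same fit 1 of the 43 was higher, against 12.6% of all tested genes. No comparison with all tested genes was matched for expression level. The differences were small, with 43 values between -0.47 and 0.30, and they are not independent of one another, as all come from the same 4 arrays. By array, the median deviation of these genes from their own means was -0.06 and -0.07 in knockout and 0.11 and 0.06 in control. The same measure over Psmb8, Psmb9, Psmb10, Psme1 and Psme2 was 0.07 and 0.07 in knockout and -0.03 and -0.12 in control. The median difference of these 5 genes thus exceeded that of the other 43 by 0.32 log2 units, and by 0.23 with Psmb9 left out, an alternative added after its value was seen; no test was made of either.

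**Figure D3:**
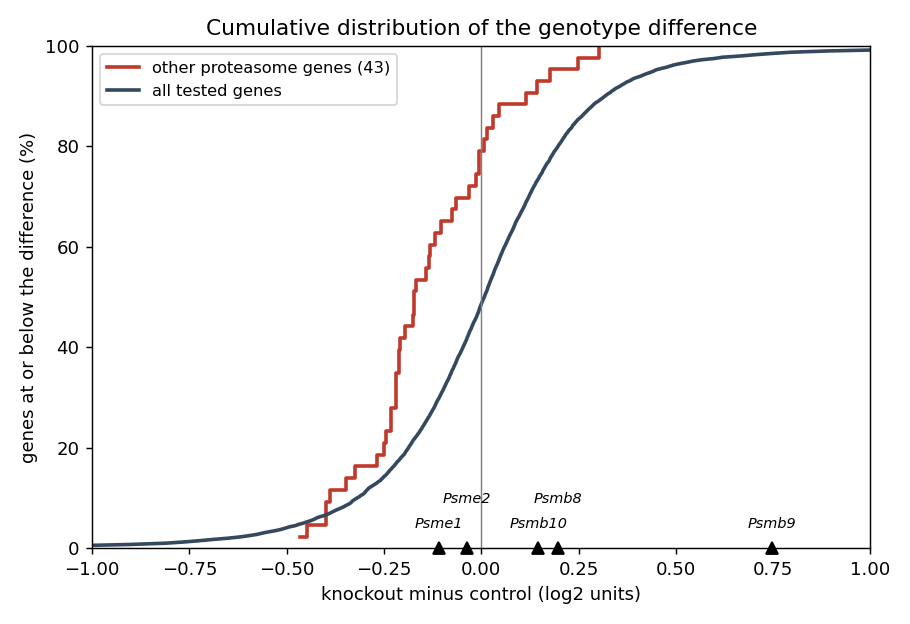
Share of genes (percent, vertical axis) at or below each knockout minus control difference (log2 units, horizontal axis), for the 43 other proteasome genes and for all 12542 tested genes, with triangles at the 5 genes of the immunoproteasome and PA28. The curve of the proteasome genes lies left of that of all genes over most of its range, crossing 0 at 79.1% against 48.7%.

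Psmb9 and Psmb8 lie in the MHC region in the order Psmb9, Tap1, Psmb8, Tap2 along chromosome 17. Tap1, which shares its promoter window with Psmb9, read 9.28 and 9.10 in knockout and 8.37 and 8.23 in control and rose by 0.89 (SE 0.11, limma adjusted p = 0.015). Tap2, on the far side of Psmb8, read 6.69 and 6.66 in knockout and 6.22 and 6.25 in control and rose by 0.44 (SE 0.08, limma adjusted p = 0.044), and H2-DMb1, next to Psmb9, differed by 0.06. Psmb8, at 0.20, therefore had a called gene on either side and was not itself called; the difference between Psmb8 and its neighbours was not tested.

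Psme1 and Psme2 flank Emc9, a subunit gene of the endoplasmic reticulum membrane complex, on chromosome 14. Emc9 read 5.49 and 5.56 in knockout and 4.97 and 4.95 in control and rose by 0.57 (SE 0.09, limma adjusted p = 0.027), while neither PA28 gene was called. It was named after its value was seen, and its annotated interval overlaps that of Psme1 by 9 bases. Rnf31, beyond Psme2, differed by 0.66 without passing (limma adjusted p = 0.10).

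**Figure D4:**
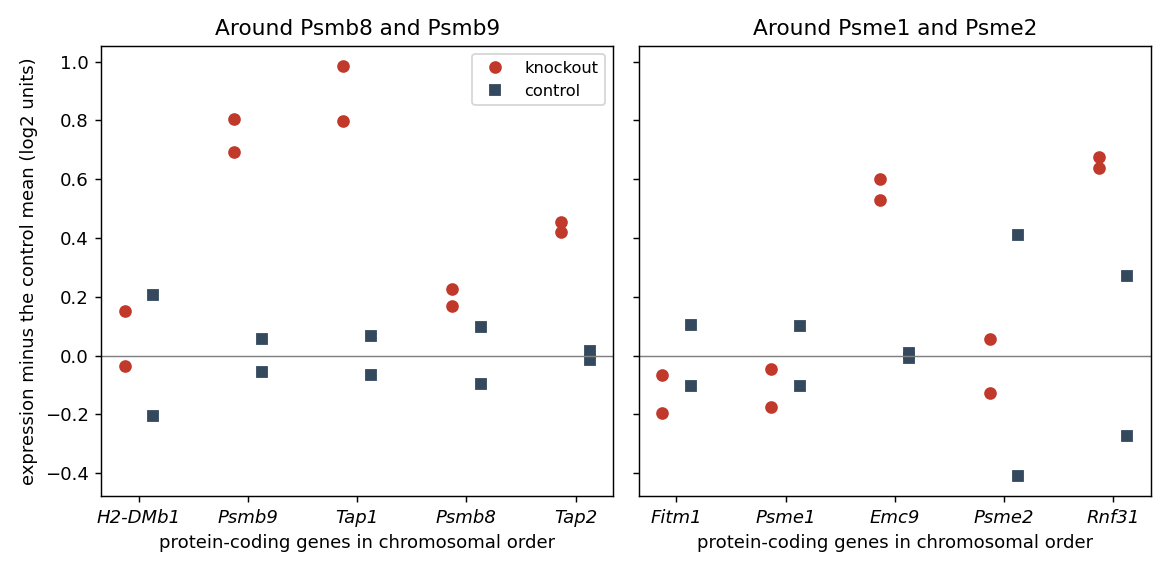
Expression on each array minus the control mean of the gene (log2 units, vertical axis) for protein-coding neighbours in chromosomal order, knockout as circles and control as squares. Tap1 and Psmb9 stand apart by 0.89 and 0.75, whereas Psmb8 between Tap1 and Tap2 differs by 0.20 and Psme1 and Psme2 overlap between genotypes.

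Proteasome genes with other symbols were read from a list of 20, of which 16 were tested and 0 were called, against 6.79% of all tested genes. At an unadjusted p under 0.05 by limma, 2 were lower, or 12.5%, and 2 higher. These are near the 12.1% lower and 12.6% higher of all tested genes. Their median was -0.17, with 11 of 16 negative, or 68.8%, against 48.7% of all tested genes. Pomp, the maturation factor of the core, read 8.85 and 8.55 in knockout and 8.94 and 8.87 in control, a difference of -0.21 (limma adjusted p = 0.37). Nfe2l1, which encodes NRF1, the transcription factor that raises proteasome gene expression when proteasome activity falls short, read 7.65 and 7.68 in knockout and 7.96 and 7.79 in control, a difference of -0.21 (limma adjusted p = 0.25).

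Further along the MHC class I pathway, 4 of 15 tested genes rose and none fell, against 3.30% and 3.49% of all tested genes. Besides Tap1 and Tap2, H2-K1, a class I heavy chain gene, read 11.39 and 11.34 in knockout and 10.83 and 10.86 in control and rose by 0.52 (limma adjusted p = 0.033). Nlrc5, the class I transactivator that also acts on Psmb9 and Tap1, read 6.52 and 6.48 in knockout and 5.98 and 5.68 in control and rose by 0.67 (limma adjusted p = 0.04). None of these groups overlapped. The tapasin gene Tapbp at 0.32 and B2m at 0.13 did not pass, and the cytosolic peptidase genes Lap3, Npepps, Tpp2 and Blmh differed by -0.23 to 0.13.

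Among regulators of the inducible subunits, 3 of 11 tested genes rose and none fell, against 3.30% and 3.49% of all tested genes. Ifnb1, the interferon beta gene, read 8.45 and 8.42 in knockout and 7.35 and 6.99 in control and rose by 1.26 (limma adjusted p = 0.012). Stat2 read 8.41 and 8.32 in knockout and 7.60 and 7.42 in control and rose by 0.86 (limma adjusted p = 0.015). Irf9 read 8.70 and 8.61 in knockout and 8.16 and 8.14 in control and rose by 0.51 (limma adjusted p = 0.036). The products of Stat2 and Irf9 belong to the complex that binds interferon-stimulated response elements. Irf1, a factor known to drive Psmb9 and Tap1, read 9.60 and 9.60 in knockout and 9.98 and 10.00 in control, a difference of -0.39 that narrowly missed the threshold (limma adjusted p = 0.057).

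Markers moved beside these results, among them Fcgr1, 1 of 8 macrophage markers, whose summed linear level was 18120 to 18170 on the knockout arrays and 15910 to 17160 on the control arrays. Of 3 monocyte markers with a feature, Ly6c2 rose by 0.76 and Ccr2 by 0.83, and Cx3cr1 differed by 0.43. Their summed linear level was 712 to 721 on the knockout arrays and 399 to 443 on the control arrays, and none of the 3 lay below the filter level. Most of that sum is Ccr2, at a mean of 9.16 log2 units in knockout and 8.33 in control. Of 6 dendritic cell markers with a feature, Itgax fell by 2.54, Ccr7 at 0.40, Flt3 at 0.16 and Cd209a at -0.04 did not pass, and Zbtb46 and Xcr1 lay below the filter level. The summed level of the 6 was 205 to 227 in knockout and 378 to 416 in control, and that of the 5 without Itgax was 165 to 190 in knockout and 161 to 181 in control. The part of any of these cell types in the Psmb9 difference was not tested.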

How the data were processed

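Expression was measured in 4 arrays of LPS-stimulated macrophages, 2 knockout and 2 control, grouped by the genotype in the titles. The deposited values are log2 intensities that the authors made by robust multi-array averaging, with background adjustment and normalization, per the series' design text; RMA and oligo are named, with no version, in the submitters' processing notes. A change of the total RNA per cell cannot be seen in such values, and differences of dim features are understated. The number of arrays limits the precision.

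Of 41345 features, 23521 had 1 gene symbol, 1814 several and 16010 none; none was named from several symbols. Symbols were checked by gene ID against RefSeq's GRCm38.p6 table (23328 matched, 0 changed). Per gene the feature with the highest mean was used, and the 12542 genes whose mean reached 3.53, the median over features, were tested with limma 3.58.1 in R 4.3.3 (lmFit, eBayes, no block; 2 residual and 3.51 prior degrees of freedom), two-sided, Benjamini-Hochberg adjusted over all of them. A gene rose or fell when its adjusted p was under 0.05. Intervals use limma's moderated SE. The fit was tested on simulated data with 200 changed genes of 12542, where 5.6% of the calls were false. It called 74.6% of the 2-fold changes but only 8% of the 1.5-fold ones. A gene not called may therefore still differ by such an amount. The simulated noise was independent between genes and drawn from the variance prior of this fit, and only 200 genes were changed. The real arrays gave 852 called genes, so the simulated shares need not hold for them.

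The members, the lists of related genes and markers, and the tests were chosen with earlier results of these data known. Values in full were given for the genes of the immunoproteasome, the constitutive catalytic genes, activators and inhibitor, called members, the 3 highest and 3 lowest uncalled differences, called members of the pathway lists, Pomp, Nfe2l1, Irf1 and Ppp2ca; markers were given by their differences and sums, and any further gene was picked with its values in view. Alternatives were leaving out each array, a block for the replicate number, a variance trend, no filter, averaging over the features of a gene, centring on array medians, and quantile normalization.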

Additional observations from a re-analysis of the deposited data

How the results depend on the processing

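The number of called genes, 852 over all tested genes, was 333 with no filter, 1584 with a prior variance that follows the mean level, 312 with the replicate number as a block, and 96 to 174 with each array left out in turn. Arrays with the same number did not deviate together (r = -0.036), and the main fit did not pair them. With 2 arrays a genotype this is a single correlation, so it cannot exclude a pairing, on which the labels are silent. Psmb9 was called under all 6 alternatives that kept 4 arrays, the replicate block included (limma adjusted p = 0.045), and 0 proteasome genes were called with any array left out (0 to 0). Median centring called 2 proteasome genes, adding Psmb6 (lower). The variance trend called 6, adding Psma1 (higher) and Psma7, Psmb6, Psmc4 and Psmd1 (lower). The gap of 0.32 between the medians of the 5 genes and the other 43 was 0.29 with quantile normalization, 0.23 without Psmb9 and 0.27 to 0.33 with each array left out. For 14 proteasome genes under 10 alternatives, 140 values in all, 3 turned sign: Psme2, at 0.055 without knockout replicate 2 and 0.37 without control replicate 2 (-0.45 to 0.37 over the arrays left out), and Psmf1, at -0.0071 without control replicate 2 (-0.0071 to 0.36). The cause of these sign changes was not tested. Dropping the filter, the replicate block and the variance trend cannot change a difference. Nor can averaging over features, as each of the 14 genes has a single feature. Leaving out an array cannot turn a sign where the genotypes did not overlap. The count of 3 in 140 therefore overstates how stable the signs are. The changes of the catalytic pair ratios kept their sign in the alternatives run for them, which were quantile normalization, averaging over features and each array left out. Averaging could not change them, since each of these genes has a single feature. Leaving out an array could not turn a sign, since every pair had its knockout arrays above its control arrays. Of these alternatives, only quantile normalization could have turned a sign.

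With 2 arrays a genotype, most 95% intervals of the proteasome genes include 0; the values limit only transcripts, not protein or assembled particles, and signal near the background limits Psma5 and Psmb11.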
